A study of Mus musculus with 7 samples.

Results

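The mouse genome carries 39 Hox genes in 4 clusters, and this account covers how they behaved in primary mouse embryonic fibroblast (MEF) lines with and without a 4.3 Mb deletion of band 4E2 of chromosome 4. The members were all genes whose symbol is Hoxa, Hoxb, Hoxc or Hoxd followed by digits alone, matched to 40 Ensembl identifiers, since Hoxa3 has 2 in the annotation used. Of the 39 genes, 33 (84.6%) were on the list of 15531 genes that the authors tested for a difference in RNA level between genotypes. None of the 33 passed the authors' threshold.

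RNA was sequenced from 7 MEF lines. The 4 Df/+Bl6 lines carried a 129S5/SvEvBrd chromosome 4 with the deletion (Df) and an intact C57BL/6J homologue, and the 3 +129/+Bl6 lines were F1 hybrids of the same strains with both homologues intact. The Df/+Bl6 embryos came from Df/Dp male chimeras mated with C57BL/6J. Every line was derived from embryos at 13.5 days whose heads had been removed, the rest of the body being minced together, so no limb, trunk or tail position was kept apart, and every line was used at confluence in passage 4. Litter and batch are not given for the lines. A gene is named called here when the authors listed it at a false discovery rate (FDR) of 0.05 with DESeq, either with the reads of both alleles added up (the combined comparison) or for 1 allele. The tables used hold the authors' mean normalized count of each genotype, and only for called genes. A Hox gene that was not called therefore has no level, fold change or error to report here, and the depth of each line is unknown. As a check of the labels, 40 protein-coding genes between Rere and Ski, which bracket the deletion, were tested, and 26 of them were called, all 26 lower in Df/+Bl6 with a median log2 ratio of -1.01.

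Hox genes encode homeodomain transcription factors that give cells along the head-to-tail axis and along the limb their positional identity. Within a cluster the genes lie in the order of their expression along the body axis, so that low-numbered paralogue groups are expressed further forward and high-numbered groups further back and toward the end of the limb. Fibroblasts in culture keep much of the Hox pattern of the site they came from. Polycomb complexes keep Hox genes silent outside their domains, Trithorax and MLL complexes keep them active within them, and retinoic acid switches on the low-numbered groups in the embryo.

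The homeodomain contacts DNA through its recognition helix, which is nearly the same in every Hox protein. Part of the bases that code for this helix is compared here, which does not measure how close whole genes are. The part taken was 24 bases, the 8 codons that end in the conserved residues WFQNRR. It was found in the GENCODE transcripts (NCBI37/mm9, sense strand) of 38 of the 39 genes and gave 33 distinct sequences. For Hoxc4 no match was found in the transcript used. Group 13, the posterior end of the series, is shown because it holds members on both sides of the authors' list, and capitals mark the bases that differ within the group.
Hoxa13: acAatCtggttCcagaaCAgGAgG
Hoxb13: acCatCtggttTcagaaCCgCCgG
Hoxc13: acCatCtggttCcagaaTCgACgC
Hoxd13: acCatTtggttTcagaaTCgAAgG
The 4 genes of group 13 differed at 8 of the 24 bases, yet all 4 sequences code for the same amino acids, TIWFQNRR. Hoxa13, Hoxc13 and Hoxd13 were tested and Hoxb13 was not. Members of different groups could be identical in these 24 bases. Hoxa6, Hoxa7 and Hoxb4 shared 1 sequence, and so did Hoxa9 with Hoxc5. Within group 3, Hoxb3 and Hoxd3 were identical. The first of these sets, which spans groups 4, 6 and 7, is shown with capitals marking the bases that differ within each gene's own group.
Hoxa6: aaGatCtggttCcagaaTcgGcgc
Hoxa7: aagatctggttCcagaaTcggcgc
Hoxb4: aagatctggttCcagaaTcggCgC

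The authors kept reads with a single best location, so transcripts that repeat each other's sequence lose reads. Over the longest transcript of each protein-coding gene, read on the sense strand, 34 of the 39 Hox genes had no window of 100 bases in common with another such gene. Of these 34, 30 were tested. Non-coding genes that overlap Hox genes, such as Hoxa11as over Hoxa11, were not compared. In those 34 genes, short identical stretches such as the helix lay within longer windows that were found in 1 protein-coding gene alone. Hoxb7 and Hoxb8, neighbours in HoxB, had 970 windows in common, which is 26.0% of the windows of Hoxb7 and 38.1% of those of Hoxb8, and both were tested. Hoxd3 and Hoxd4 had 960 in common, 28.0% of Hoxd3 and 39.0% of Hoxd4. Hoxd3 was tested and Hoxd4 was not. Hoxa3 shared 1.03% of its windows, with its own second identifier. These shares come from an older annotation than the one the authors counted on. The counts of these overlapping neighbours are uncertain for that reason.

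To be on the list of genes tested a gene had to have enough reads in the authors' filter, so a place on the list says that reads were counted and gives no level, and absence from it does not show that a gene was silent. Groups 5 to 11, which pattern the trunk and the limb, were on it in full, with 21 of 21 genes. The limits of this band coincide with the unbroken run of complete groups, so its full share is no independent result. Group 2 was complete as well, with 2 of 2 genes. Groups 1 to 4, the genes of the hindbrain and neck, had 8 of 12 (66.7%), and groups 12 and 13, the genes of the tail end, digits and genital region, had 4 of 6 (66.7%). The 6 genes not on the list were Hoxa3, Hoxb1, Hoxb13, Hoxc12, Hoxd1 and Hoxd4. For comparison, 14068 of 22380 annotated protein-coding genes (62.9%) and 87 of 167 other homeobox genes (52.1%) were tested. These shares are descriptions of 1 list, with no test between them.

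**Figure D1:**
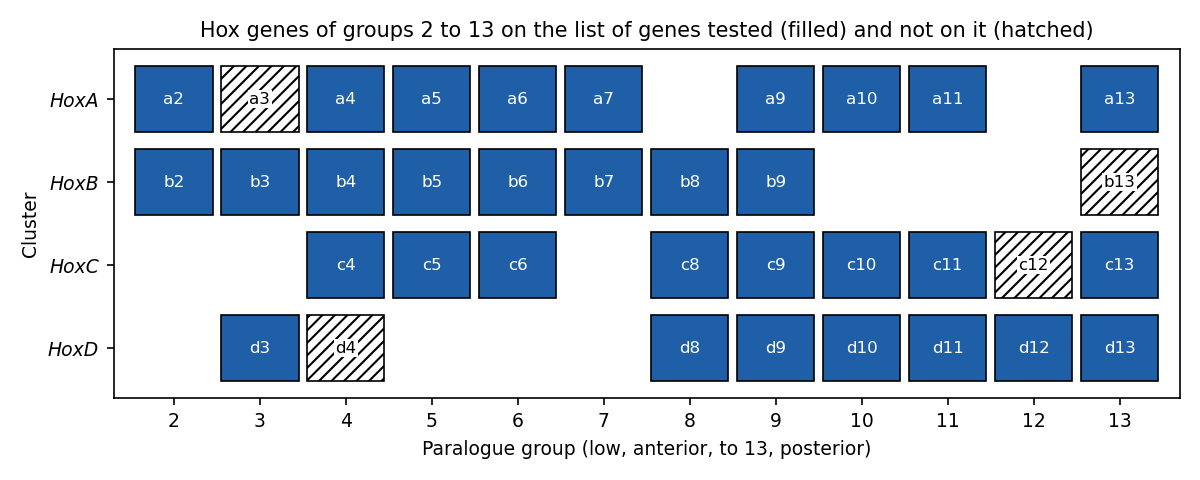
Hox genes of paralogue groups 2 to 13 by cluster (rows) and group (columns), filled where the gene was on the list of genes tested and hatched where it was not; an empty position has no gene. Groups 2 and 5 to 11 are filled throughout, and the 4 hatched genes are Hoxa3, Hoxb13, Hoxc12 and Hoxd4.

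HoxA, on chromosome 6, had 10 of its 11 genes on the list. Hoxa3, a gene of the pharyngeal arches, was not on it, and the run from Hoxa4 to Hoxa13, which is required for digits and the genital tubercle, was complete. HoxB, on chromosome 11 from 96194316 to 96368254 (GRCm38, 174 kb), had 8 of 10, an unbroken run from Hoxb2 to Hoxb9. The genes missing from the list at its ends were Hoxb1, which specifies a hindbrain segment, and Hoxb13, a gene of the tail and prostate that stands apart from the rest of the cluster. HoxC, on chromosome 15 from 102921131 to 103036856 (116 kb), has no gene of groups 1 to 3 and had 8 of 9 on the list, Hoxc4 to Hoxc11 and Hoxc13, the latter a gene of hair and nail. HoxD, on chromosome 2 from 74668225 to 74765142 (96.9 kb), had 7 of 9, which were Hoxd3 and the run from Hoxd8 to Hoxd13, the genes of limb outgrowth and digits. The posterior members of groups 9 to 13 were on the list for 14 of 16 genes (87.5%), with all 4 clusters represented.

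The tested and untested genes of a cluster could lie together, as Hoxd3 and Hoxd4 did, where the annotated Hoxd3 gene (74711993 to 74748271) spans Hoxd4 (74721978 to 74729160). The promoter windows of this pair in RefSeq (GRCm38.p6, plus strand) lie at chr2:74711743-74712042 and chr2:74721728-74722027 and reach from upstream of the annotated start into the transcript. They are shown as the pair that fell on opposite sides of the list, with each CpG in capitals.
Hoxd3: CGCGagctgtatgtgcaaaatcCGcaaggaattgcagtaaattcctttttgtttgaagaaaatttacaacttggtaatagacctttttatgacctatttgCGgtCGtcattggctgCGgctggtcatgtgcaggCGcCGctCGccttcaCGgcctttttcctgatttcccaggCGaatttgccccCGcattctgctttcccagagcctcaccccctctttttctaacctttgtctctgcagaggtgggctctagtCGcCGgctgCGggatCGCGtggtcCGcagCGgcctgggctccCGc
Hoxd4: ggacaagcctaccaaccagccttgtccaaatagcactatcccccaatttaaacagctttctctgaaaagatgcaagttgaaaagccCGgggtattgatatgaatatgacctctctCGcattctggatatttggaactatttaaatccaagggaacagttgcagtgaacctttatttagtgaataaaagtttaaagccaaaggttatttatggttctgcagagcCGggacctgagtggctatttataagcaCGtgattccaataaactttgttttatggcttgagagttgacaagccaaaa
The Hoxd3 window held 20 CpG and the Hoxd4 window held 4. The RefSeq table matched 22 of the 39 Hox genes, 18 tested and 4 not. The tested genes had a median of 13.5 CpG in the 300 bases (range 4 to 45, the highest in Hoxa13) and those not tested a median of 15 (range 4 to 29, the highest in Hoxd1). The median over 27025 genes was 7. The ranges of tested and untested Hox genes overlapped, so the number of CpG did not separate them.

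None of the 33 tested Hox genes was called in the combined comparison of Df/+Bl6 with +129/+Bl6 lines, where 8.67% of all genes tested were called by the authors with DESeq. This held in each cluster, for 0 of 10 in HoxA, 0 of 8 in HoxB, 0 of 8 in HoxC and 0 of 7 in HoxD, and so for genes of the head end, the trunk and the tail end of the series. For the 129S5/SvEvBrd allele none of the Hox genes was called (4.88% of 5271 genes tested), and none was for the C57BL/6J allele (5.69% of 5727). Which Hox genes were tested for each allele is not known from the tables used, so the allele counts have no denominator of their own. The count at an unadjusted p under 0.05 was not obtained, because the tables used hold only genes past the FDR. A gene that missed the threshold is not shown to have equal levels in the genotypes. The smallest log2 ratio of a called gene was 0.42 in size and the median was 0.80, which describes the differences called over all genes and sets no limit on those of the Hox genes.

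Other genes that mark body position gave low counts of calls too, again beside 8.67% of all genes tested. The 9 TALE cofactors, homeodomain partners that bind DNA together with Hox proteins (Meis1 to Meis3, Pknox1 and Pknox2 among them), were all tested and none was called. Of the transcription factors of trunk and limb, among them Tbx4 and Pitx1 of the hindlimb and Tbx5 of the forelimb, 26 of 26 were tested and none was called. Of 16 factors of head mesenchyme, 12 were tested and none was called, while Otx1, Otx2, Dlx4 and Lhx8 were not on the list. Of the caudal, ParaHox and Evx genes, homeobox genes related to those of the Hox clusters, 1 of 8 was tested, Evx2 beside HoxD, and it was not called. Together the 4 lists held 48 tested genes and 0 calls. Among 87 other homeobox genes tested, the TALE genes and many of these factors included, 2 were called (2.30%), both higher in Df/+Bl6. The mean normalized count of Six4, a factor of muscle and sensory precursors, was 2332 in Df/+Bl6 and 1432 in +129/+Bl6 (log2 ratio 0.70). That of Zhx1, a zinc finger homeobox repressor, was 4648 and 3230 (0.53).

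Among the regulators of Hox genes, the Polycomb list held a larger share of called genes than the 8.67% of all genes tested, and the Trithorax and retinoic acid lists held shares near it. These lists were chosen with earlier results of these data known, so the shares are descriptions and not tests. Of 22 Polycomb genes tested, 6 rose in Df/+Bl6 and none fell (27.3% called, beside 5.13% of all genes called higher and 3.54% called lower). Ezh2, the methyltransferase of Polycomb repressive complex 2 (PRC2), had a mean of 5462 in Df/+Bl6 and 2515 in +129/+Bl6 (log2 ratio 1.12). Its core partner Suz12 had 6761 and 3850 (0.81). The other Polycomb genes that rose were Mtf2 and Phf19, which bring PRC2 to chromatin, and Bmi1 and Cbx2 of Polycomb repressive complex 1. Mtf2 had 1898 and 936 (1.02), Phf19 had 1148 and 743 (0.63), Bmi1 had 5941 and 3848 (0.63) and Cbx2 had 1710 and 968 (0.82). None of the 6 was listed for a single allele, and whether they were tested for the alleles is not known from the tables used. The PRC2 core gene Eed, the alternative methyltransferase Ezh1 and the E3 ligase genes Ring1 and Rnf2 were tested and not called, and Cbx7 was not on the list.

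Of 11 Trithorax and MLL genes tested, 1 was called (9.09%, near the 8.67% of all genes). Psip1, a chromatin reader that holds MLL complexes at their targets, had a mean of 13060 in Df/+Bl6 and 6899 in +129/+Bl6 (log2 ratio 0.92). It was also called for both alleles, with 398 against 179 on the 129S5/SvEvBrd allele (1.16) and 431 against 205 on the C57BL/6J allele (1.07). The allele tables were normalized apart, so their levels are not compared. Kmt2a, the MLL1 methyltransferase, and Men1 and Wdr5 of its complex were tested and not called, and Kmt2d found no match under the symbols searched. Of 14 retinoic acid pathway genes tested, 1 was called (7.14%, again near the 8.67% of all genes). Dhrs3, which turns retinaldehyde back to retinol, fell in Df/+Bl6, with a mean of 2509 against 5597 (log2 ratio -1.16). It also fell on the C57BL/6J allele, with 744 against 1647 (-1.15). It was not listed for the 129S5/SvEvBrd allele, and whether it was tested there is not known. Rara, Rarb and Rarg, the receptors, and Aldh1a2 and Rdh10, which make the ligand, were tested and not called, and Cyp26a1 and Cyp26c1, which break it down, were not on the list.

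**Figure D2:**
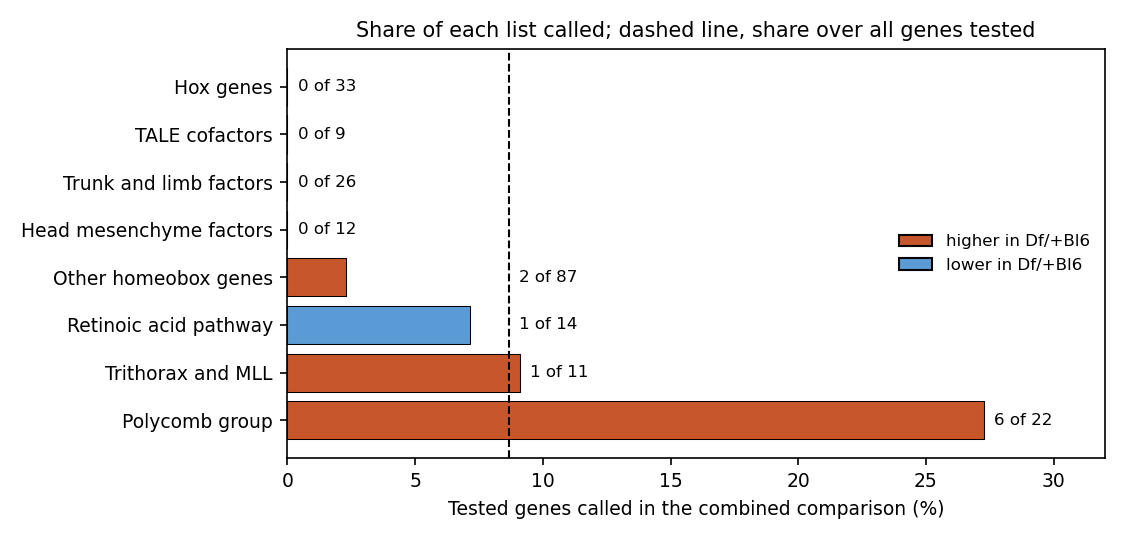
Percent of the tested genes of each list that were called in the combined comparison, higher (orange) or lower (blue) in Df/+Bl6, with the number called of the number tested beside each bar and 8.67%, the share over all genes tested, as a dashed line. The Hox genes, the TALE cofactors and both sets of positional factors are at 0, and the Polycomb group is at 27.3%. Not drawn are the cell division markers (100%), the neural and neural crest markers (50%) and the fibroblast markers (7.14%). The remaining lists, each at 0, are not drawn either.

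Genes of cell division differed in the same direction as the 6 called Polycomb genes and Psip1. All 15 cell division markers tested were called higher in Df/+Bl6, with a median log2 ratio of 1.01. Over all genes tested, 8.67% were called and 5.13% were called higher. The list was put together with these results known, so its full count carries no weight as a test. Mki67, the Ki-67 proliferation antigen, had a mean of 48354 against 14644 (log2 ratio 1.72) and Pcna, the replication clamp, 10817 against 6817 (0.67). Ezh2 and other PRC2 genes are known to be expressed with the cell cycle, and the part of cell division in the Polycomb result was not tested.

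**Figure D3:**
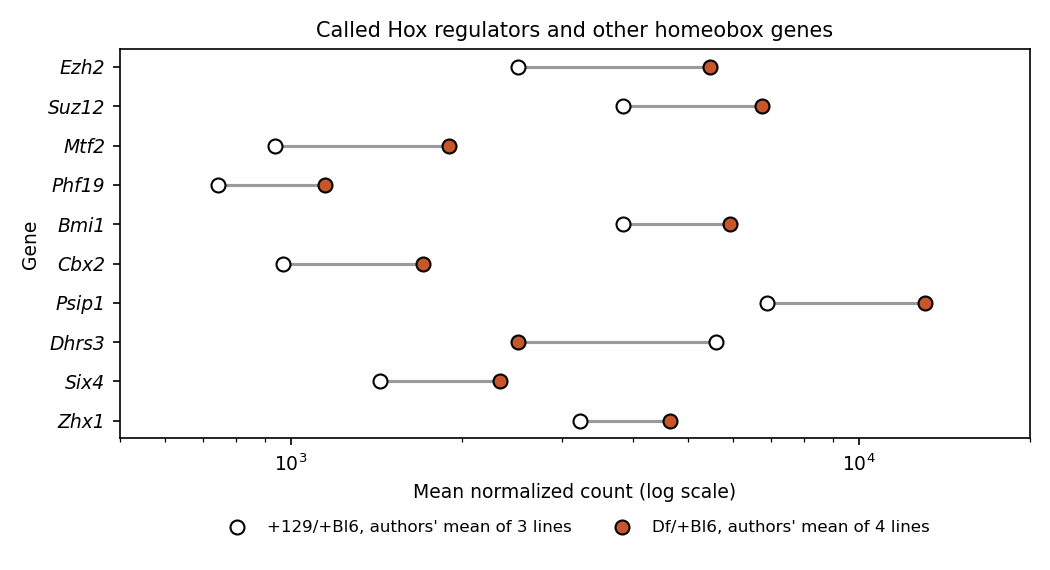
Authors' mean normalized count of each genotype (log axis, no error available) for the called Polycomb genes (Ezh2 to Cbx2), Psip1, Dhrs3 and the homeobox genes Six4 and Zhx1. Filled points are Df/+Bl6 and open points +129/+Bl6, and Dhrs3 is the gene with the open point to the right.

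Around the clusters, 37 protein-coding genes within 500 kb of a cluster end were tested and 4 were called (10.8%, beside 8.67% of all genes). On the group 1 side of HoxC, Cbx5, which encodes a heterochromatin protein, had a mean of 20487 in Df/+Bl6 and 12614 in +129/+Bl6 (log2 ratio 0.70) at 155 kb from the cluster. Its neighbour Hnrnpa1, an RNA-binding protein gene, had 46496 and 29976 (0.63) at 204 kb, and has processed copies elsewhere in the genome that make its count uncertain. On the group 13 side Calcoco1, a coactivator gene, was the nearest tested gene at 199 kb and had 6455 and 11293 (-0.81). Beyond the group 13 end of HoxD, Lnp, an endoplasmic reticulum protein gene, had 3319 and 2120 (0.65) at 88.9 kb, while Evx2, between Lnp and the cluster at 8.45 kb, was not called. The nearest tested genes on the other sides were Skap2 (143 kb) and Hibadh (285 kb) at HoxA, Snx11 (399 kb) and Atp5g1 (119 kb) at HoxB, Smug1 (116 kb) at HoxC and Mtx2 (60.7 kb) at HoxD, and none of these was called. Inside the clusters, 6 further annotated genes were tested in HoxA and 3 in HoxB, among them the antisense genes Hoxa11as and Hoxb3os, and none was called. The libraries were stranded, but no source used here says whether the counting used the strand, so reads of antisense genes cannot be assigned with certainty. The called neighbours of HoxC and HoxD lay 88.9 to 204 kb from the cluster, within the 500 kb chosen, and their share was near that over all genes.

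**Figure D4:**
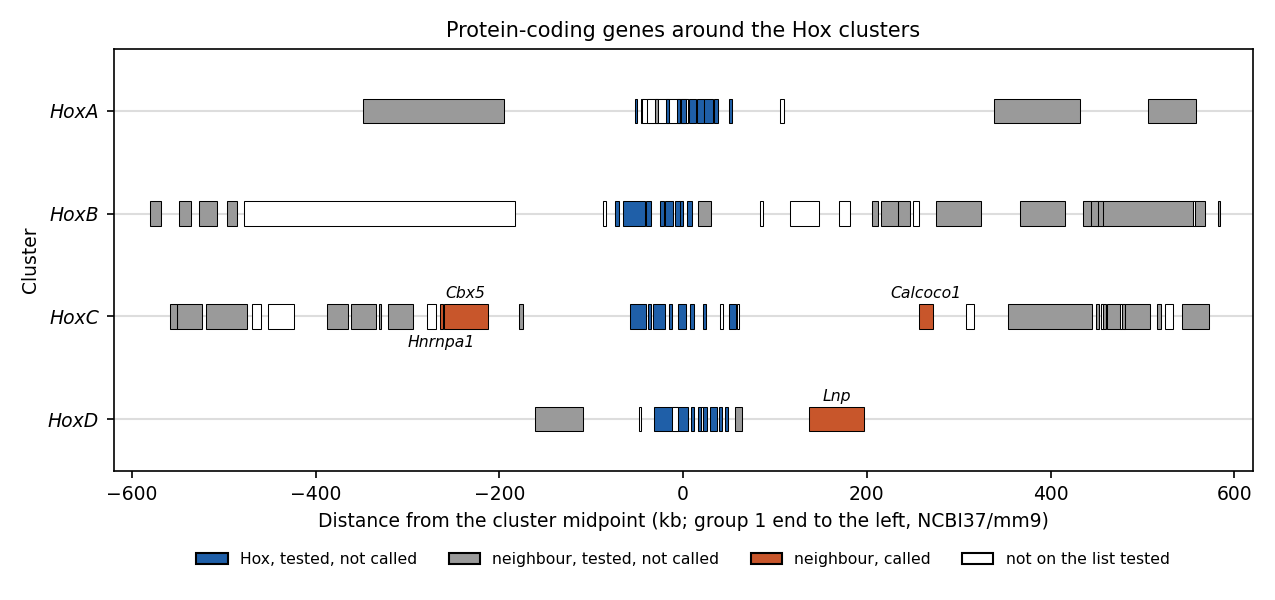
Protein-coding genes around each Hox cluster, by distance in kb from the cluster midpoint with the group 1 end to the left. Boxes are genes, blue for tested Hox genes, grey for tested neighbours that were not called, orange for called neighbours and white for genes not on the list; the 4 called genes are Cbx5 and Hnrnpa1 to the left of HoxC, Calcoco1 to its right and Lnp to the right of HoxD.

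Markers of cell types were counted, and their counts stand beside 8.67% of all genes called and 3.54% called lower. A place on the list gives no level, and markers of several other types were on it in full. These counts therefore could not check the labelled cell type. All 14 fibroblast markers were tested, and Fn1, which encodes fibronectin, was the 1 called, with a mean of 2121647 in Df/+Bl6 and 3418220 in +129/+Bl6 (log2 ratio -0.69). Genes of other cell types were on the list too, with 6 of 7 skeletal muscle, 6 of 6 macrophage, 5 of 5 endothelial, 4 of 6 epithelial and 3 of 4 chondrocyte markers, and none of these was called. Myf5, Epcam, Krt5 and Matn1 were not on it. Of 6 neural and neural crest markers, all tested, 3 fell in Df/+Bl6. Among them, Sox10, the neural crest and glial regulator, had 113 against 326 (log2 ratio -1.53) and Ngfr had 443 against 1334 (-1.59). In cultures read as bulk RNA, fewer cells of a type and less RNA per cell cannot be told apart. No Hox gene was called alongside these 3 genes, and the part of cell composition in the Hox counts was not tested.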

How the data were processed

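PolyA+ RNA of 7 MEF lines was read as stranded paired-end libraries. The authors aligned reads with GSNAP to the C57BL/6J transcriptome (GRCm38/mm10) and to its 129S5/SvEvBrd counterpart, kept pairs on 1 gene with a single best location, left out genes with few reads on each allele, and compared genotypes with DESeq. The submitters' processing notes name the same tools and builds.

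Per genotype, the authors deposited a mean normalized count (a signal value) for each gene at an FDR of 0.05. Log2 ratios of Df/+Bl6 over +129/+Bl6 were computed here from these means, without a pseudocount. The authors also deposited a p-value and an adjusted p-value per gene, which were read only to check the FDR and to derive the number of genes tested per allele. Their fold change columns were not used. The gene identifiers of a further deposited file served as the list of genes tested, while its 9 value columns carry no names and were left out, so no value per line, SD or test between lines is given. The model fit planned for named columns was not run.

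Symbols, neighbours and transcripts came from GENCODE (NCBI37/mm9), which places 14963 of the 15531 identifiers. Cluster positions and promoters came from RefSeq (GRCm38), and the builds were not mixed. The Hox genes, gene lists and comparisons were chosen with earlier results of these data known. Every Hox gene was counted, every called gene of a list could be named, and of the neighbours the nearest tested gene on each side and each called gene. Tested genes that were not called, such as Eed or Kmt2a, are named as examples without values. The family of other homeobox genes and the cell division list were added after the data were seen. Counting and window matching were tested on simulated data. Python 3.11.15, numpy 2.4.6, pandas 2.3.3 and matplotlib 3.10.9 were used. Some genes and sequences are counted but not reported here by name.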

Additional observations from a re-analysis of the deposited data

How the results depend on the processing

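The count of 33 tested Hox genes was the same with symbols from the second name table and was 30 without the genes that share a window of 100 bases, an alternative chosen after seeing the data. The count of 0 called Hox genes stayed at 0 under each alternative run, which by construction cannot add a call. Requiring a log2 ratio of at least 1, also chosen after seeing the data for these lists, left 2 Polycomb genes (Ezh2 and Mtf2), 0 Trithorax and MLL genes, 0 fibroblast markers, 8 cell division markers and 0 other homeobox genes. Adding 1 or 10 to both means moved the log2 ratios of 29 called genes by at most 0.09, and by construction cannot turn a sign. The 23 allele values kept the sign too. They exist only for genes called for that allele, and the combined comparison sums both alleles, so they are no independent check. The planned median and ratios of called Hox genes have no value, because no Hox gene was called. No paired analysis was possible because the columns of values carry no line names, and leaving out a line was not run for the same reason. Depth per line is unknown, so the size of difference that could have been detected in a Hox gene is unknown too.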
